A study of Mus musculus with 9 samples.

Results

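Integrins are cell-surface receptors made of one alpha and one beta chain, and laminins are basement membrane proteins made of one alpha, one beta and one gamma chain. Their genes were followed in the mouse dorsal root ganglion (DRG), the cluster of sensory neuron cell bodies beside the spinal cord, after the sciatic nerve was cut. All genes whose name on the array began with Itga, Itgb, Lama, Lamb or Lamc in the form of an integrin or laminin symbol were taken, which gave 91 probes for 43 of the 27672 genes on the arrays. Of these 43 genes, 42 were detected and tested among 20900 genes, while Itga2, a collagen receptor chain, was not well above background on enough arrays. The names covered 25 integrin subunits (24 tested), 11 laminin chains and 7 integrin-like or integrin-binding proteins, which are not receptor chains. Among the last, Itgb4bp is now Eif6, a ribosome biogenesis factor, and Itgb1bp3 is now Nmrk2, a nicotinamide riboside kinase. Lamb1-1 is the older name of Lamb1.

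Total RNA of L3/L4 DRG came from adult mice, 4 uninjured samples (labelled control) and 5 injured samples (labelled lesion) taken 3 days after transection by the labels and the methods, while the results text gives a shorter interval. All samples carried the labels cre.neg and jun.wt, which the groups therefore share. The labels give neither age, sex nor the animal behind each sample, so p-values measure the spread between these samples, which may be technical. Each sample was labelled with Cy5 and hybridized with a universal mouse reference RNA in Cy3, without dye swap, and values are log2 ratios of DRG over reference. Arrays are numbered within each group in the order of deposit. The median Cy5 signal lay between 156.3 (injured 5) and 237.8 (injured 2), and 71% to 78.9% of spots were above background. The arrays lay on 3 slides: uninjured 2, 3 and 4 on the first, uninjured 1 with injured 1, 2 and 5 on the second, and injured 3 and 4 on the third, so slide and injury largely overlapped. On injured 2, 20 spots had non-uniform background, none of them of an integrin or laminin gene. All 10 sensory neuron markers and all 9 Schwann cell and myelin markers tested were above background on every array. The ganglia hold neurons, satellite glia, Schwann cells, vessels, fibroblasts and macrophages, and in such bulk samples fewer cells of a type and less RNA per cell cannot be told apart.

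Laminins line the sheath around each axon and its Schwann cell, and neurons and glia hold on to them through integrins. The alpha3, alpha6 and alpha7 chains pair with beta1 to bind laminin, and alpha6 also pairs with beta4 in Schwann cells. Axotomized sensory neurons are known to raise alpha7 during regrowth. The beta2 integrins (alphaL, alphaM, alphaX) are found on leukocytes.

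Promoter windows are shown for called genes, since a nerve lesion switches on the AP-1 factor c-Jun and the AP-1 site is a short string that can be looked up. RefSeq windows (build GRCm38.p6, 250 bases before to 50 after a transcript start) were found for 28 of the 43 genes, as 31 windows, and Itga7 was not among them. The letters TGANTCA, which read the same on both strands, occurred in 3 of these 31 windows, against 7.81% of all 32851 windows. The cAMP response element TGACGTCA occurred in 0 of the 31, against 1.79% of all windows. Matches are descriptions of the letters only. Itga3 has 2 annotated starts, and the match lies at base 13 after the second. Itgax has a match that begins at base -56, before its start, and the third lies in Itga9, which was not called. Itgb1 and Lama5 are shown as called genes without a match. Each line runs 5′ to 3′ on the gene's strand, and capitals mark TGANTCA.
Itga3, first start (chr11:95076665-95076964, minus strand): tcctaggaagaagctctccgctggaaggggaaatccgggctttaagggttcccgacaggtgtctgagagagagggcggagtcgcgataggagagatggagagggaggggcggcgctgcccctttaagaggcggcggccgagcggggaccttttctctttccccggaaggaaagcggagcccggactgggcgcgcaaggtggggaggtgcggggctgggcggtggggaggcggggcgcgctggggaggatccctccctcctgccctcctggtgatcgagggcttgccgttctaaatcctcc
Itga3, second start (chr11:95069149-95069448, minus strand): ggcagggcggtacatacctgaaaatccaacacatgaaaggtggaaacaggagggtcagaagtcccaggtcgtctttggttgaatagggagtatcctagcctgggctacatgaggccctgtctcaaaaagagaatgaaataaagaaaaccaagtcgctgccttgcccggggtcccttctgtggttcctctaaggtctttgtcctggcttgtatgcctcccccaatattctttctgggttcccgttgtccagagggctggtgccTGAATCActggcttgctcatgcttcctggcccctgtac
Itgax (chr7:128129300-128129599, plus strand): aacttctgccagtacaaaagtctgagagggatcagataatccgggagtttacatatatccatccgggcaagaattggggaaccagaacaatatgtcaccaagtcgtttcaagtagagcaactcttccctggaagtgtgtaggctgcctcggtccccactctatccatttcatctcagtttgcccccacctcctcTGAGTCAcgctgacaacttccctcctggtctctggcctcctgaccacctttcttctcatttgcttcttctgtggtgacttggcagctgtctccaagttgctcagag
Itgb1 (chr8:128685404-128685703, plus strand): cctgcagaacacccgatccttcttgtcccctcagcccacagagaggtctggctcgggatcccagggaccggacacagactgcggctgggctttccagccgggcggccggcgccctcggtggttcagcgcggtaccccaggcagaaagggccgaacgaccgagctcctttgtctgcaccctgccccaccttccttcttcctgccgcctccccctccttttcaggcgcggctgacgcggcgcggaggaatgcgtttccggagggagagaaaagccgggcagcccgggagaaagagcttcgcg
Lama5 (chr2:180225810-180226109, minus strand): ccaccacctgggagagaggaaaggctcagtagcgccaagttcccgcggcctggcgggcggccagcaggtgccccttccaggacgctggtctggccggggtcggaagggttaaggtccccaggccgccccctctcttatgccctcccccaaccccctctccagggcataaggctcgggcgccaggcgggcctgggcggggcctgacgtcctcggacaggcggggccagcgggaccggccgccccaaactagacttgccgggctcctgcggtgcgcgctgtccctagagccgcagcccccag

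Injured and uninjured arrays were compared to ask which adhesion genes change after axotomy. Of the 42 genes tested, 13 were called at an adjusted p under 0.05 (limma, Benjamini-Hochberg over all genes): 11 rose and 2 fell. Among all 20900 genes 25.4% were called, 11.4% higher and 14% lower, against 31% of the integrin and laminin genes called, 26.2% higher and 4.76% lower. The groups of arrays did not overlap for 9 of the 42 genes (21.4%), against 23.9% of all genes. The median log2 fold change was 0.20 over the 42 genes and 0.00 over all genes, with 33 of the 42 above 0. The largest rises were those of Itga7, Lama5, Itga3 and Itgb1, and the 2 falls were Itgb6 and Itga4. By structure, 5 of 16 integrin alpha chains rose and 1 fell, 2 of 8 beta chains rose and 1 fell, and 2 of 11 laminin chains rose. With slide as a fixed block, which leaves uninjured 1 alone to set against injured arrays of its own slide, 4 of the 42 genes were called (Itga7, Itga3, Itgb4bp and Itga2b), while 1178 of all genes were.

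**Figure D1:**
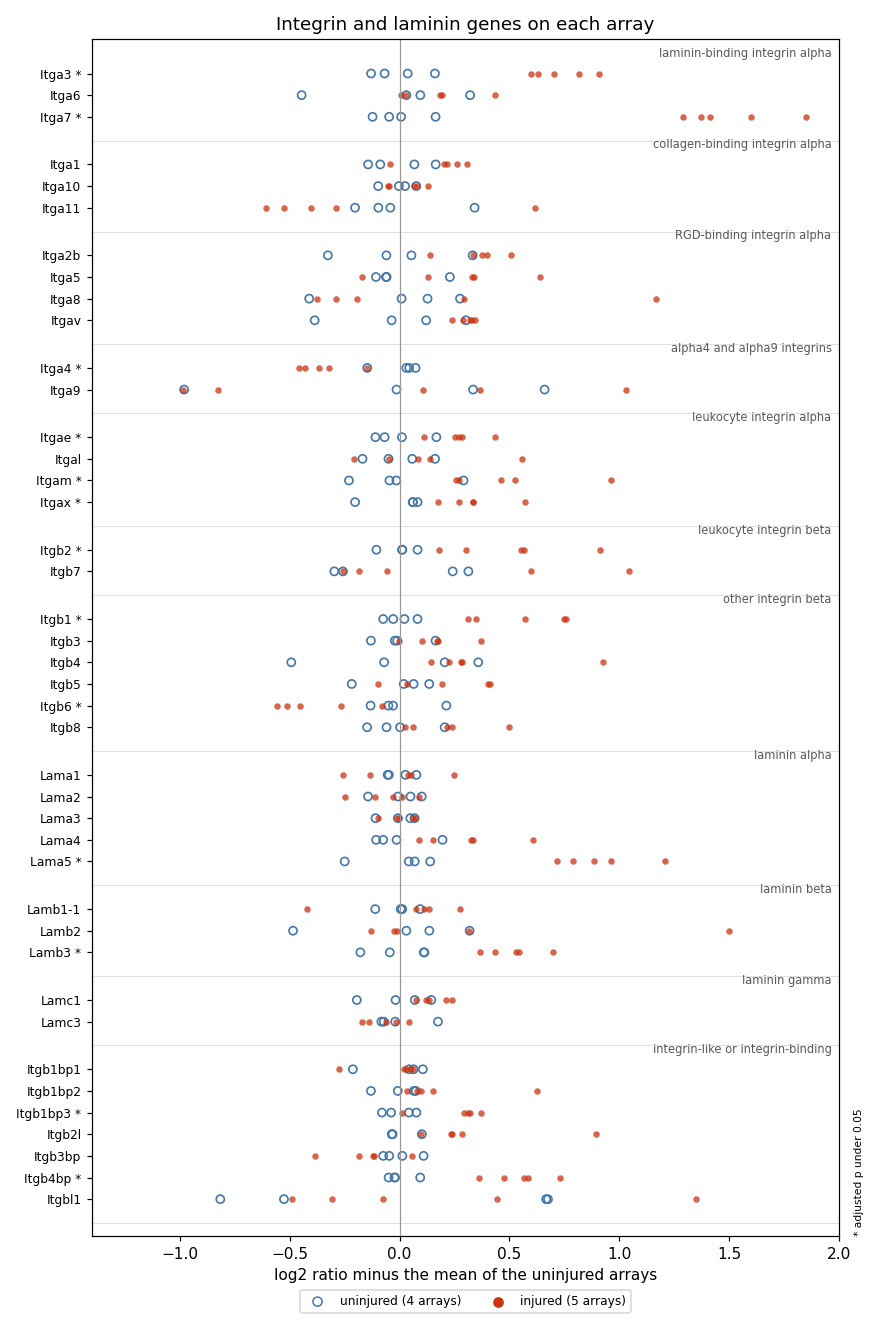
Log2 ratio (DRG over reference) of the tested integrin and laminin genes on each array (all but 1 of the 42), minus the mean of the 4 uninjured arrays, grouped by role; open circles are uninjured and filled circles injured arrays, and an asterisk marks an adjusted p under 0.05. Itga7, Lama5, Itga3 and Itgb1 stand clear of the uninjured arrays on all 5 injured arrays, while most laminin chains overlap.

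The 3 genes grouped as neuronal (Itga7, Itga3 and Itgb1), all chains of laminin receptors, rose, beside 11.4% of all genes. The group was drawn up with earlier results of these data known, so its count is a description, and 2 of the 3 rose with median centring or with slide as a fixed block. Itga7 encodes the alpha7 chain, a laminin receptor of muscle and of sensory neurons. Its log2 ratios were 2.25, 2.30, 2.17 and 2.46 on uninjured arrays 1 to 4 and 3.67, 3.71, 3.59, 3.90 and 4.15 on injured arrays 1 to 5. Every injured array lay more than a log2 unit above every uninjured one. The log2 fold change was 1.504 (SE 0.112; 2.84-fold), with an adjusted p of 8.18e-06 by limma and 0.00794 by exact permutation, two-sided, the smallest that 126 splits allow. Its probe lies at chr10:128459702-128459760 (build mm7, as in the files), and a second probe of the gene gave 1.70. The skeletal muscle markers were raised on injured 2 and injured 4 (means of 1.74 and 3.28 above the uninjured mean, against -0.09 to 0.32 on the other injured arrays). Without injured 2 and injured 4 the Itga7 change was 1.504 (limma adjusted p = 0.000304). Of the injured arrays kept, injured 5 had muscle markers at 0.32, against up to 0.09 on uninjured arrays. The part of muscle in the Itga7 change was not tested.

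Itga3 encodes the alpha3 chain, which binds several laminins. Its ratios were -0.48, -0.25, -0.54 and -0.37 on uninjured and 0.41, 0.29, 0.22, 0.19 and 0.50 on injured arrays, without overlap. The change was 0.73 (SE 0.0843, limma adjusted p = 0.000156, exact permutation p = 0.00794). The probe lies at chr11:95153712-95153771 (mm7), and the other probes of the gene gave 0.85 and 0.35, both called. Itgb1 encodes beta1, the common partner of alpha3, alpha6 and alpha7. Its ratios were -0.89, -0.99, -0.83 and -0.94 on uninjured and -0.16, -0.17, -0.35, -0.57 and -0.60 on injured arrays. All injured arrays were above all uninjured ones, but injured 1 and 2 lay further up than injured 4 and 5. The change was 0.55 (SE 0.103, limma adjusted p = 0.0031, exact permutation p = 0.00794). This probe (chr8:127341194-127341253, mm7) is printed in 10 spots per array, whose SD within an array was 0.0122 to 0.0395. A dimmer probe of Itgb1 gave 0.46 (adjusted p = 0.115). Blocking on slide, the Itgb1 change was 0.58 (adjusted p = 0.115), and with median centring in place of loess it was 0.48 (adjusted p = 0.14). These 3 genes were grouped as neuronal from what is known of them, with earlier results of these data already seen. Glia and other cells express Itgb1 and Itga7 too, and Itga6 was grouped as glial.

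Itga6, the third laminin-binding alpha chain, did not pass the test. Its ratios were 0.08, -0.69, -0.15 and -0.21 on uninjured and -0.21, -0.05, -0.06, 0.19 and -0.24 on injured arrays, and the groups overlapped apart from uninjured 2, which lay below all injured arrays, and injured 4, above all uninjured ones. The change was 0.17 (SE 0.144, limma adjusted p = 0.435), and it was 0.021 without uninjured 2, 0.28 without uninjured 1 and 0.10 without injured 4. The other probes of Itga6 gave 0.12 and 0.12. The change of Itga7 exceeded that of Itga6 by 1.33 on the log2 scale and that of Itga3 by 0.77, and Itga3 exceeded Itga6 by 0.56. These differences were chosen after the values were seen and are given without a test. Itgb4, the beta partner of alpha6 in Schwann cells, had ratios of 2.48, 2.05, 2.75 and 2.90 on uninjured and 2.69, 2.83, 2.77, 2.82 and 3.47 on injured arrays. Uninjured 3 and 4 lay within the range of the injured arrays, and the change was 0.37 (SE 0.193, limma adjusted p = 0.195). Without uninjured 2 the Itgb4 change was 0.21 and without injured 5 it was 0.23.

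**Figure D2:**
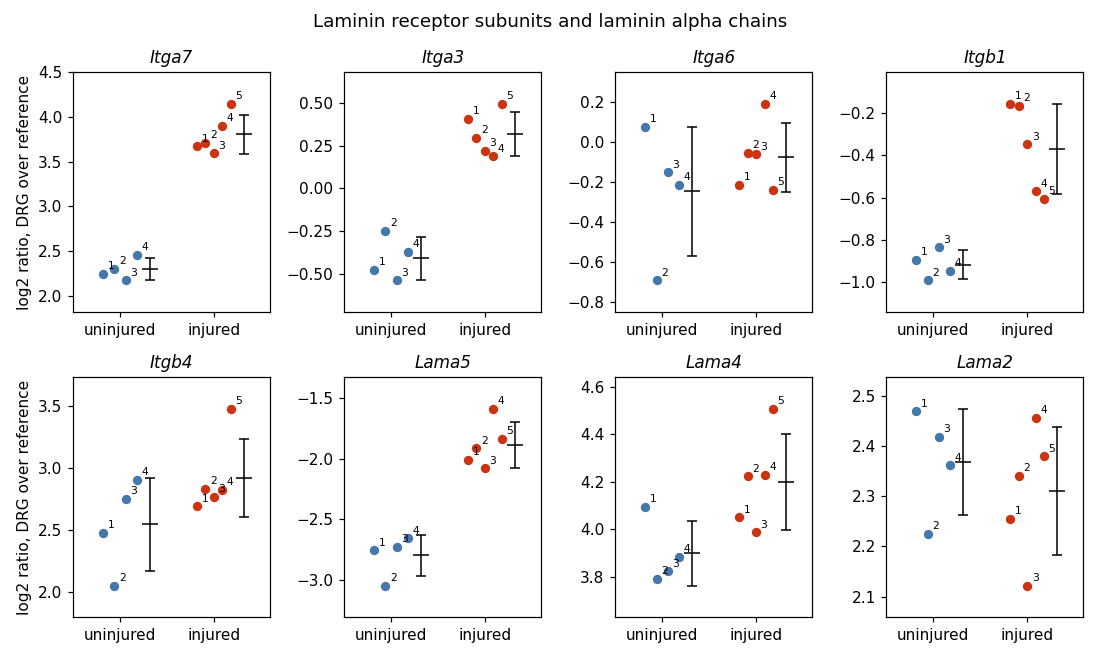
Log2 ratio of DRG over reference for laminin receptor chains and laminin alpha chains, one point per array with its number, and mean with SD beside each group (4 uninjured, 5 injured arrays). Itga7, Itga3, Itgb1 and Lama5 separate the groups, and Itga6, Itgb4 and Lama2 do not.

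Among laminin chains, Lama5 and Lamb3 rose (18.2%, beside 11.4% of all genes) and the other 9 did not pass the test. Lama5 encodes alpha5, a chain of vessel and mature basement membranes. Its ratios were -2.76, -3.05, -2.73 and -2.66 on uninjured and -2.01, -1.91, -2.08, -1.59 and -1.84 on injured arrays. The groups did not overlap, and the change was 0.91 (SE 0.11, 1.88-fold, limma adjusted p = 0.000207, exact permutation p = 0.00794). Lama5 has a single probe on the array. Lamb3 encodes beta3, a chain of epithelial laminin, with alpha3. Its ratios were -2.40, -2.25, -2.54 and -2.25 on uninjured and -1.82, -1.99, -1.83, -1.93 and -1.66 on injured arrays. The groups did not overlap, and the change was 0.51 (SE 0.086, limma adjusted p = 0.00157, exact permutation p = 0.00794). Its alpha partner Lama3 had a change of 0.00 (adjusted p = 0.974). With an offset of 0 or with Agilent's own ratio the Lamb3 change was 0.89 and 1.23. When slide was a fixed block, neither Lama5 (0.84, adjusted p = 0.0563) nor Lamb3 (0.58, adjusted p = 0.0829) was called. Endothelial markers, whose mean lay within -0.26 to 0.12 on uninjured arrays, reached 0.57 on injured 5 and lay between -0.03 and 0.25 on the rest of the injured arrays, and their part in the Lama5 change was not tested.

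The laminin chains of the Schwann cell basement membrane did not pass the test. Lama2 encodes alpha2, the chain whose loss causes a muscular dystrophy with neuropathy. Its ratios were 2.47, 2.22, 2.42 and 2.36 on uninjured and 2.26, 2.34, 2.12, 2.46 and 2.38 on injured arrays, with a change of -0.06 (SE 0.0797, limma adjusted p = 0.651). Lama2 was read by 10 spots per array, with an SD of 0.033 to 0.0643 within an array. Lama4 encodes alpha4, found in vessels and in nerve. Its ratios were 4.09, 3.79, 3.82 and 3.88 on uninjured and 4.05, 4.22, 3.99, 4.23 and 4.51 on injured arrays. Only uninjured 1 reached into the injured range, and the change was 0.30 (SE 0.108, limma adjusted p = 0.0647, exact permutation p = 0.0476). Without uninjured 1 or without injured 3, Lama4 passed at 0.37 (adjusted p = 0.0475) and 0.35 (adjusted p = 0.0377). Lama5 rose by 0.97 more than Lama2 and by 0.61 more than Lama4 on the log2 scale.

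The beta and gamma chains of the same laminins did not pass either. Lamb1-1 (beta1) had ratios of -0.38, -0.58, -0.46 and -0.46 on uninjured and -0.34, -0.39, -0.36, -0.20 and -0.89 on injured arrays, with a change of 0.03 (SE 0.123, limma adjusted p = 0.878). Lamb2 (beta2, the chain of the nerve-muscle synapse and of nerve) had -1.65, -1.13, -1.03 and -0.84 on uninjured and -1.17, -0.85, -1.19, -1.29 and 0.34 on injured arrays. Injured 5 alone lay above the uninjured arrays, and the change of 0.33 (SE 0.31, limma adjusted p = 0.487) was 0.04 without injured 5 and 0.17 without uninjured 1. Lamc1 (gamma1, shared by most laminins) had -1.20, -1.46, -1.12 and -1.29 on uninjured and -1.15, -1.03, -1.19, -1.13 and -1.06 on injured arrays, with a change of 0.16 (SE 0.075, limma adjusted p = 0.164) and of 0.09 without uninjured 2. Of the other laminin chains, Lama1 and Lamc3 had changes of -0.01 and -0.07. The 8 genes grouped as glial (Itga6, Itgb4, Itgb8, Lama2, Lama4, Lamb1-1, Lamb2 and Lamc1) held none that passed the test by limma, beside 25.4% of all genes called. With so few genes, this count does not set the group apart from all genes. Of the 8, 1 (Lama4) had an unadjusted limma p under 0.05. With slide as a random block 3 passed, beside 7408 of all 20900 genes. The changes ran from -0.06 (Lama2) to 0.37 (Itgb4), with a median of 0.19. The summed Schwann cell and myelin marker level overlapped between the groups, at 188 to 278 on uninjured and 217 to 301 on injured arrays (sum of ratios to reference).

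Of 7 tested genes grouped as leukocyte members, Itgb2, Itgam, Itgax and Itgae rose, Itga4 fell, and Itgal and Itgb7 did not pass, beside 25.4% of all genes called. The count of 4 that rose was not stable. It was 1 without uninjured 2 (Itgb2), 2 without uninjured 1 or 3 or injured 3 or 4, 3 without injured 2, 1 with median centring (Itgam), 1 with the methods' t-test and 0 with slide as a fixed block or without injured 2 and injured 4. Itgb2 encodes beta2, the chain shared by the leukocyte receptors alphaL, alphaM and alphaX. Its ratios were -2.47, -2.59, -2.47 and -2.40 on uninjured and -2.30, -1.57, -2.18, -1.92 and -1.93 on injured arrays, without overlap, and injured 2 was highest. The change was 0.50 (SE 0.129, limma adjusted p = 0.0162, exact permutation p = 0.0159). Itgam encodes alphaM (CD11b), found on macrophages, microglia and neutrophils. Its ratios were -0.11, -0.30, -0.08 and 0.22 on uninjured and 0.20, 0.90, 0.40, 0.46 and 0.19 on injured arrays. Uninjured 4 lay above injured 1 and injured 5, and the probe was well above background on 3 of the 4 uninjured arrays. The change was 0.50 (SE 0.149, limma adjusted p = 0.0335, exact permutation p = 0.0476). A second Itgam probe gave 0.20 (adjusted p = 0.335), and with an offset of 0 or with Agilent's own ratio the change was 1.22 and 1.53. Without uninjured 1, 2 or 3 or injured 3 or 4, the Itgam change was 0.42 to 0.50 and its adjusted p 0.0534 to 0.0914.

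Itgax encodes alphaX (CD11c), of dendritic cells and macrophages. It changed by 0.34 (SE 0.0902, limma adjusted p = 0.0196), from -1.65 to -1.37 on uninjured and -1.28 to -0.88 on injured arrays, and by 0.27 without uninjured 2 (adjusted p = 0.0514). With an offset of 0 or with Agilent's own ratio the Itgax change was 0.56 and 0.66. Its second probe gave 0.06 (adjusted p = 0.48). Itgae encodes alphaE (CD103), of T cells and dendritic cells in epithelia. It changed by 0.27 (SE 0.0797, limma adjusted p = 0.0302), with uninjured 4 (0.32) above injured 1 (0.26). Without uninjured 1, 2 or 3 or injured 2, 3 or 4, the Itgae change was 0.23 to 0.27 and its adjusted p 0.0544 to 0.0950. Itgal (alphaL, of lymphocytes) and Itgb7 (beta7, of gut-homing lymphocytes) had changes of 0.10 and 0.23 and overlapping arrays, and Itgb7 ranged from 0.0243 (without injured 5) to 0.35 on leaving out 1 array. Itga4 encodes alpha4, a receptor for VCAM1 and fibronectin on leukocytes and neural crest cells. It fell by 0.35 on the log2 scale (SE 0.0773, limma adjusted p = 0.00812), from -0.01 to 0.21 on uninjured to -0.32 to -0.01 on injured arrays, while its other tested probes gave 0.01 and -0.07 and the average of its probes -0.13 (adjusted p = 0.13).

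Macrophage markers and markers of blood cells were also raised on some injured arrays. All 13 macrophage markers were above background on every array, and 2 of them rose (15.4%, beside 11.4% of all genes). Their mean, relative to the uninjured mean, was -0.45 to 0.35 on uninjured and 0.08, 0.94, 0.30, 0.42 and 1.00 on injured arrays 1 to 5. Their summed ratio to reference was 22.1 to 42.7 on uninjured and 33.9 to 70.8 on injured arrays. The 6 neutrophil markers tested stood at 3.16 on injured 2 and 1.67 on injured 4, against 0.53 to 0.73 on the other injured and up to 0.52 on uninjured arrays. The 4 red blood cell markers reached 1.57 on injured 2, the 7 platelet markers 1.13, and the 7 T cell markers 0.30. The part of these cells in the leukocyte integrin changes was not tested. Without injured 2 and injured 5, which had the highest macrophage markers, Itgb2 changed by 0.35 (adjusted p = 0.033), Itgam by 0.42 (adjusted p = 0.0384), Itgax by 0.26 (adjusted p = 0.0654) and Itgae by 0.22 (adjusted p = 0.102). Without injured 2 and injured 4, Itgb2 was at 0.34 (adjusted p = 0.0522) and Itgam at 0.33 (adjusted p = 0.116).

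**Figure D3:**
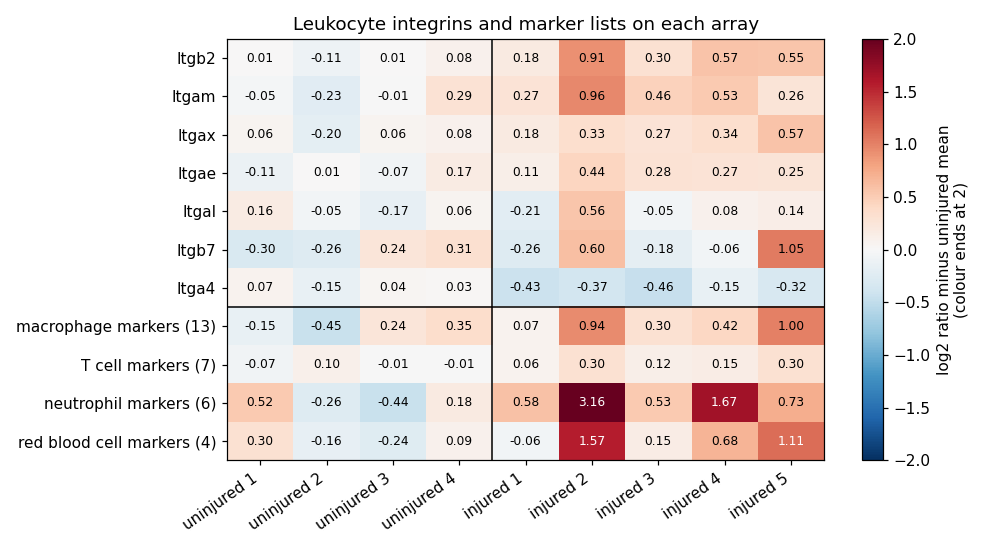
Log2 ratio minus the uninjured mean for the 7 tested leukocyte integrin genes (top) and the mean of 4 marker lists with the number of genes in each (bottom), one column per array; the number in each cell is the value. Itgb2 and Itgam are highest on injured 2, where the neutrophil markers reach 3.16, and Itga4 is below the uninjured mean on all 5 injured arrays.

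Of the remaining integrin chains only Itgb6 was called. Itgb6 (beta6, which with alphav activates TGF-beta in epithelia) fell by 0.37 (SE 0.109, limma adjusted p = 0.0285), from 0.20 to 0.54 on uninjured to -0.23 to 0.25 on injured arrays, and a second probe gave -0.36. Without uninjured 1, 2 or 4 or injured 1, 2 or 3, the Itgb6 change was -0.39 to -0.30 and its adjusted p 0.0552 to 0.0777. With an offset of 0 or with Agilent's own ratio it was -0.67 and -0.79. The chains that bind RGD sequences in fibronectin and vitronectin (Itga5, Itga8, Itgav and Itga2b) had changes from 0.12 (Itga8) to 0.35 (Itga2b), and none was called, though Itga2b and Itgav had unadjusted p of 0.0159 and 0.0249. Itgav was at 0.30 (adjusted p = 0.0822), at 0.40 (adjusted p = 0.0234) without uninjured 4 and 0.17 (adjusted p = 0.149) without uninjured 2. Itga2b, the platelet chain alphaIIb, was at 0.35 (adjusted p = 0.059) and ranged from 0.24 to 0.46 on leaving out 1 array, passing without uninjured 2 (0.46) or injured 3 (0.40). Itga5 was at 0.25, at 0.36 (adjusted p = 0.0478) without injured 1 and at 0.16 (adjusted p = 0.396) without injured 5. The collagen receptor chains Itga1, Itga10 and Itga11 were at 0.19, 0.03 and -0.24, and 2 of them passed without 1 array, Itga1 without injured 1 (0.25) and Itga11 without injured 5 (-0.46), while Itga11 was at -0.13 without uninjured 3 and -0.15 without injured 3. Itga9, a tenascin receptor, was at -0.06 with SDs of 0.71 and 0.844, and 1 probe of it under another name gave 0.12. A probe of Itgav under another name gave 0.06. The beta chains Itgb3, Itgb5 and Itgb8 were at 0.16, 0.19 and 0.21, with 0.12 for Itgb5 without uninjured 2 and 0.14 for Itgb8 without injured 2.

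Of the 7 integrin-like or integrin-binding genes, Itgb4bp and Itgb1bp3 rose (28.6%, beside 11.4% of all genes). Itgb4bp (Eif6) had ratios of -1.23, -1.12, -1.26 and -1.23 on uninjured and -0.64, -0.73, -0.85, -0.63 and -0.48 on injured arrays. It rose by 0.54 (SE 0.0762, limma adjusted p = 0.000523, exact permutation p = 0.00794) without overlap, and its other probes gave 0.54 and -0.05, with 0.34 for the average of its probes. Itgb1bp3 (Nmrk2) rose by 0.26 (SE 0.0791, limma adjusted p = 0.034), and without uninjured 1, 3 or 4 or injured 1, 2, 3 or 4 its adjusted p was 0.0626 to 0.0977. With an offset of 0 or with Agilent's own ratio the Itgb1bp3 change was 0.45 and 0.49, and with Cy5 alone 0.12. Itgbl1, Itgb1bp1, Itgb1bp2, Itgb2l and Itgb3bp were between -0.15 (Itgb3bp) and 0.35 (Itgb2l). A second, dimmer probe of Itgb3bp gave -0.33 (limma adjusted p = 0.00714), and Itgb2l was at 0.21 without injured 2. The Itgb2l probe was well above background on 1 uninjured and all 5 injured arrays. It met the filter only through the injured arrays, so its values are a description. Without injured 4 the Itgb1bp2 change was 0.0916, and without injured 1 that of Itgb3bp was -0.0905.

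**Figure D4:**
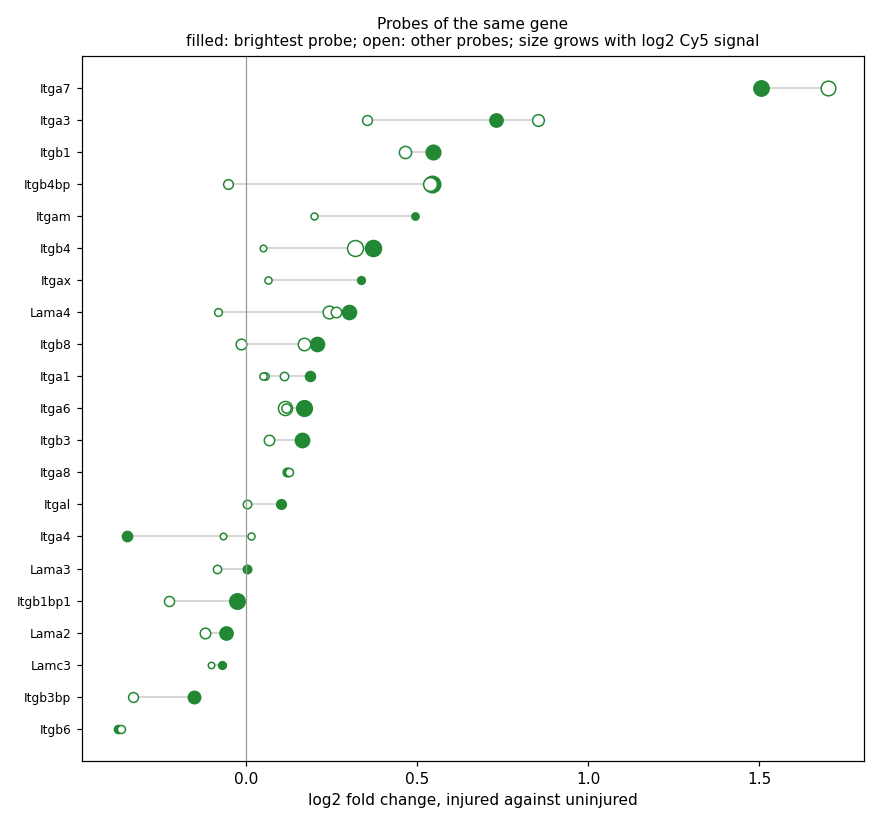
Log2 fold change, injured against uninjured, of each tested probe for integrin and laminin genes with over 1 tested probe; filled points are the brightest probe, used for the gene, open points the others, and point size grows with log2 Cy5 signal. The probes of Itga7, Itga3, Itgb1 and Itgb6 lie on the same side of 0, and those of Itga4 and Itgb4bp spread to about 0.

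Genes that act with these receptors were taken from lists of the pathway. Of 27 tested integrin adaptors and kinases, 9 rose and 2 fell, with a median of 0.15. The largest rises were Zyx (zyxin, of focal adhesions; 0.74, SE 0.116, limma adjusted p = 0.00105) and Flna (filamin A, which binds integrin tails and actin; 0.72, SE 0.152, adjusted p = 0.00608). Named after their values were seen, Ptk2 (focal adhesion kinase) rose by 0.43, Src by 0.34 and Tln1 (talin 1, which activates integrins) by 0.47. Tln2, the second talin, fell by 0.44 and Lims1 (PINCH1, a partner of integrin-linked kinase) by 0.33 on the log2 scale. With median centring 4 of the adaptors and kinases rose, and with the slide block 5. Of 15 tested genes listed as partners of laminin, not all of them basement membrane proteins, 3 rose and 1 fell, with a median of 0.20. Sdc1 (syndecan 1, a heparan sulfate proteoglycan that binds laminin) rose by 1.94 (SE 0.114, limma adjusted p = 1.41e-06), from a mean ratio of -2.16 ± 0.174 (SD, n = 4) to -0.22 ± 0.200 (SD, n = 5). Sdc3 and Col4a2 (type IV collagen) each rose by 0.41, and Utrn (utrophin) fell by 0.39. The laminin partners that rose numbered 5 without injured 5 or with array weights. They numbered 6 with slide as a random block and 2 with median centring or the slide block. Of 19 integrin ligands other than laminins, 3 rose and 2 fell, with a median of 0.26. Icam2, a ligand of alphaL beta2, rose by 0.68 and Spp1 (osteopontin) by 0.58, Tgfb1 rose by 0.37, and Fgg (fibrinogen gamma) fell by 0.61 and Cdh1 (E-cadherin, which binds alphaE beta7) by 0.37. Among all genes 25.4% were called either way, 11.4% higher and 14% lower. The adaptor list had 40.7% called (33.3% higher, 7.41% lower). The list of laminin partners had 26.7% called (20% higher, 6.67% lower) and the ligand list 26.3% (15.8% higher). The ligands that rose numbered 1 with median centring, 0 with the slide block and 6 with slide as a random block. Of all 20900 genes, 981 rose with median centring, 629 with the slide block and 3481 with slide as a random block. With array weights 2791 of all genes rose, and 2379 did without injured 5.

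**Figure D5:**
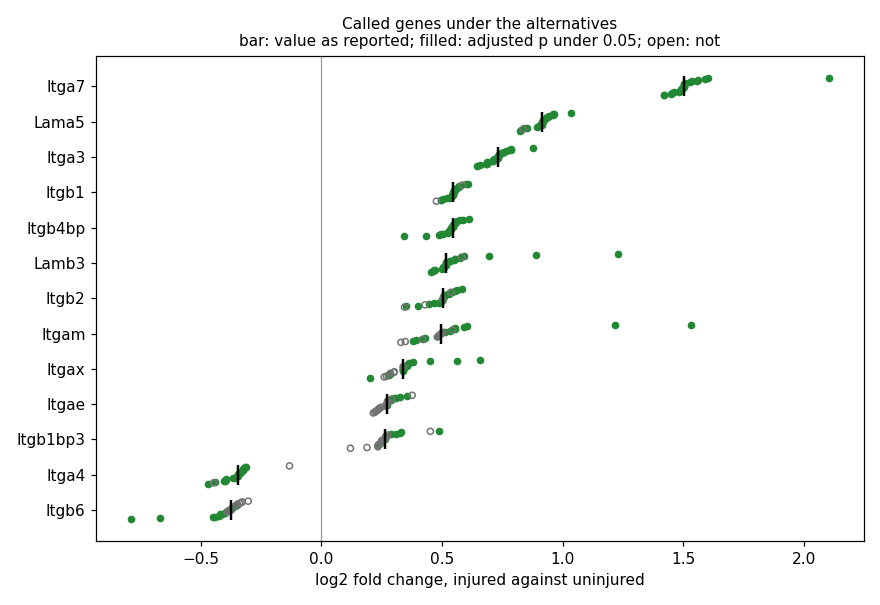
Log2 fold change of the 13 called genes under each alternative processing, one point per alternative; the bar is the value as reported, filled points had an adjusted p under 0.05 and open points did not. Itga7, Itga3 and Itgb4bp are called under all 25 alternatives (24 could be run for Itgam), and Itgae and Itgb1bp3 lose the call under more than 10.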

How the data were processed

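Total RNA of 9 DRG samples was measured on 2-colour Agilent arrays. The authors deposited scanner intensities (the mean of each spot and the median of its local background in each channel), not yet normalized. Log10 ratios in these files came, per the file headers, from Agilent Feature Extraction 10.5.1.1, and the authors also deposited log2 ratios of sample over reference, normalized within arrays. The log2 ratios used here were computed from the intensities in R 4.3.3 with limma 3.58.1: normexp background correction (offset 50, fitted per array and channel without spots of non-uniform background), loess within arrays and the mean of repeated spots. Probes with a Cy5 signal well above background on 4 arrays or more (31186 of 41174) were kept, with the brightest probe per gene. A called gene had an adjusted p under 0.05 by limma (Benjamini-Hochberg over 20900 genes), and genes given in full are called ones with a log2 change of at least 0.5 and chosen receptor and laminin chains. Genes given in full were also tested by exact permutation (two-sided, 126 splits), without adjustment. For those not called, the permutation p was 0.0476 (Lama4), 0.0714 (Lamc1), 0.183 (Itgb4), 0.349 (Itga6), 0.5 (Lama2), 0.532 (Lamb2) and 0.841 (Lamb1-1). The procedure was tested on simulated data with independent noise for each gene and no slide effect. That test therefore does not cover the overlap of slide and injury. Alternatives were other background, normalization, filter, block, weight, probe and test choices, the authors' values, and leaving out arrays. Genes and lists were chosen with earlier results of these data known, and the differences between pairs of genes and the settings without arrays of raised markers were added after values were seen. Gene symbols were matched by accession for 22951 probes, symbol for 6659 and older name for 3109. Probe positions are on mm7. The number of arrays limits the precision. Figures were drawn with matplotlib 3.10.9. The optic nerve, culture and sequencing experiments were not used here. The values of 1 gene, which was not called, are included in the counts but not reported here.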

Additional observations from a re-analysis of the deposited data

Results flagged for a closer look

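In 11 of 84 groups of arrays tested, each 1 gene in 1 group, a single array stood far from the others by Dixon's ratio, which chance alone does in about 1 in 20 groups. Injured 5, the array with the lowest median Cy5 signal (156.3), was the array apart in 5 of them. Its log2 ratio was 1.59 for Itga11 (others up to 0.69), 3.47 for Itgb4 (others up to 2.83), 0.34 for Lamb2 (others up to -0.85), -0.89 for Lamb1-1 (others down to -0.39) and -0.18 for Itgb1bp3 (others down to 0.10). Injured 2 was at 0.93 for Itgb2l (others up to 0.32), injured 4 at 0.14 for Itgb1bp2 (others up to -0.33) and injured 1 at -0.0512 for Itgb1bp1 (others down to 0.24). Among uninjured arrays, uninjured 1 was at -2.98 for Itga5 (others up to -3.27) and at 0.13 for Itgb2l (others up to 0.00), and uninjured 2 at -1.65 for Itgax (others down to -1.39). Of these genes Itgax and Itgb1bp3 were called.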

How the results depend on the processing

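Under 25 alternatives (24 for Itgam, whose probe was left out by the filter on both channels) none of the 13 called genes changed direction, and 3 of them (Itga7, Itga3 and Itgb4bp) were called under every one. Genes called numbered 5309 in all, and 2659 with median centring, 1178 with slide as a fixed block (53.4% of them higher, against 45% of the 5309), 3012 without injured 2 and injured 4, and 1241 when a change above 1.5-fold was also required. Of the 42 genes, 13 were called (11 higher, 2 lower), against 8 (6 higher) with median centring and 4 (4 higher, 0 lower) with slide as a fixed block. With slide as a random block (correlation within slides -0.207) 17 were higher, beside 3481 of all 20900 genes. A t-test in place of limma called 8 (7 higher, 1 lower), beside 4705 of all genes. Without injured 2 and injured 4, 7 were called (6 higher, 1 lower), and above 1.5-fold 3 (3 higher, 0 lower). With slide as a fixed block 10 of the 42 had an unadjusted p under 0.05, a count not taken over all genes. The t-test gave 15 of the 42 genes at an unadjusted p under 0.05, beside 7332 of all 20900 genes. Leaving out each array in turn gave 4026 to 5446 genes called in all, and 10 to 14 of the 42, 8 to 12 of them higher and 1 to 3 lower. No paired analysis was possible because animals are not named in the labels and the replicate numbers are in order of deposit only.

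Directions turned only among genes that were not called, and the log2 fold changes were as follows. With normexp fitted on all spots the direction turned for Lama3 at -0.0083. With an offset of 0 the direction turned for Lama3 at -0.0249. With Agilent's own ratio the direction turned for Itga10 at -0.071 and Lama3 at -0.0763. With median centring the direction turned for Lama1 at 0.0352 and Lamb1-1 at -0.0511. With the authors' values the direction turned for Itga10 at -0.0236 and Lama1 at 0.0079. With Cy5 alone the direction turned for Itga9 at 0.0229, Itgal at -0.0204, Itgb1bp1 at 0.0024 and Lama1 at 0.0913. With slide as a fixed block the direction turned for Itga1 at -0.0186, Itga11 at 0.0311, Itga6 at -0.24, Itga8 at -0.0718, Itga9 at 1.12, Lama1 at 0.17, Lama3 at -0.0849 and Lamb1-1 at -0.16. With array weights the direction turned for Itgb1bp1 at 0.0104, Itgbl1 at -0.0821 and Lama3 at -0.0113. Averaging all probes of a gene, the direction turned for Lama3 at -0.04. Without injured 2 and injured 4 the direction turned for Itga8 at -0.12, Itga9 at 0.50, Itgal at -0.0396, Lama1 at 0.0085 and Lamb1-1 at -0.0591. Without injured 2 and injured 5 the direction turned for Itga10 at -0.0081, Itgal at -0.0587, Itgb7 at -0.17, Itgbl1 at -0.29 and Lamb2 at -0.0562. Leaving out each array in turn, the ranges that crossed 0 were -0.14 to 0.24 for Itga8, -0.39 to 0.17 for Itga9, -0.0092 to 0.18 for Itgal, -0.0951 to 0.0385 for Itgb1bp1, -0.11 to 0.41 for Itgbl1, -0.0758 to 0.0501 for Lama1, -0.0326 to 0.0298 for Lama3 and -0.0255 to 0.15 for Lamb1-1. The cause was not tested. Among the called genes, dim probes, close to background, limit Itgam, Itgax, Itgb6, Lamb3 and Itgb1bp3. Their log2 fold changes were over 1.5 times larger with an offset of 0 or with Agilent's own ratio.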
